A study of Homo sapiens with 12 samples.

Results

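The genes described here are the members of the tripartite motif (TRIM) family that were expressed in U251 cells, an established human glioblastoma line. TRIM proteins carry a RING finger, B-box zinc fingers and a coiled coil, followed by a C-terminal part that differs between classes and chooses the target. Most of them are E3 ubiquitin ligases, which attach ubiquitin to other proteins. Several act in innate immunity, where they block viruses directly or control the signalling that leads to interferon, and interferons in turn raise the mRNA of some members. IFNγ signals through JAK kinases mainly to GAS elements in DNA, whereas type I interferons signal mainly to interferon-stimulated response elements (ISRE).

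Members were the rows named TRIM followed only by digits whose mean over the 12 libraries was at least 0.5 CPM, the unit of the deposited reads scaled to library depth. This held for 46 of 66 such rows, in a table of 45416 genes. The members were chosen by their mean CPM over all 12 libraries, so their levels are given as a description. Just inside the limit were *TRIM61* at 0.570 CPM and *TRIM17* at 0.628 CPM, and just outside were *TRIM74* at 0.332 CPM and *TRIM71* at 0.127 CPM. All 46 members had a mean of at least 0.5 CPM in unstimulated libraries, so none entered through IFNγ alone, and all 46 passed the filter on low reads that left 17982 genes for testing. Of the 20 rows left out, 7 had no read in any library (*TRIM42*, *TRIM43*, *TRIM48*, *TRIM49*, *TRIM51*, *TRIM60* and *TRIM77*).

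Cells were transfected with a control siRNA (siNC) or with 1 of 2 siRNAs against *CD274*, the gene of PD-L1, called siPDL1-1 and siPDL1-2. From 48 h after transfection they received either no cytokine or IFNγ at 100 U/ml for 24 h. Each of the 6 groups had 2 libraries of this 1 cell line, and the study names 2 biological replicates, so the errors below rest on all groups sharing 1 estimate of the spread. A library had between 17101069 and 55657393 reads on genes. The targeted gene *CD274* was at 4.60 and 4.91 CPM in siNC, 2.67 and 2.73 in siPDL1-1, and 3.57 and 3.45 in siPDL1-2. In these unstimulated cells *CD274* had a log2 difference from siNC of -0.64 in siPDL1-1, which was called, and -0.35 in siPDL1-2, which was not. After IFNγ it was at 71.2 and 76.0 CPM in siNC, 61.0 and 66.7 in siPDL1-1, and 37.5 and 35 in siPDL1-2, so the siPDL1-1 libraries lay below siNC by a log2 difference of -0.20, which was not called, and siPDL1-2 by -1.0, which was. Of 7 glioma line markers, *VIM* was at 3139 to 3968 CPM, *CD44* at 421 to 669, *NES* at 127 to 190, *SOX2* at 108 to 213 and *EGFR* at 110 to 145. *GFAP* stayed at 7.25 CPM or lower and *S100B* at 5.92 CPM or lower. The 5 leukocyte markers summed to 0.899 CPM at most, *EPCAM* to 0.12 CPM and the 2 endothelial markers to 1.71 CPM.

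The RefSeq promoters of the interferon-responsive members are shown first, since both interferon pathways act through short elements near the start. A promoter here is the stretch from 250 bases before to 50 bases after a start in GRCh38, and 35 of the 46 members had 1 or more. The letters GAAANNGAA, the core of the ISRE, were looked for on both strands, as were the letters TTCNNNGAA, the core of the GAS element. The ISRE core was present for 6 of the 9 members with a promoter that rose with IFNγ as defined below (*TRIM5*, *TRIM14*, *TRIM21*, *TRIM26*, *TRIM34* and *TRIM69*), and for 3 of 26 members that were not called (*TRIM2*, *TRIM16* and *TRIM44*). Among all 27305 genes with a promoter, 9.86% held it. The GAS core was present for 0 of these 9 members and for 5 of the 26, beside 9.38% of all genes. A match of letters is a description of these windows, not of a bound site, and no promoter entry was given for *TRIM22*, *TRIM29* or *TRIM45*.

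The windows that hold the ISRE core follow, 5′ to 3′ on the strand of the gene, with the core in capitals on whichever strand it was found.
*TRIM5*, chr11:5685078-5685107, minus strand, match beginning 26 bases before the start: tttatctTTCACTTTCctgccctgagtgtg
*TRIM34*, chr11:5624876-5624955, plus strand, 89 bases before the start: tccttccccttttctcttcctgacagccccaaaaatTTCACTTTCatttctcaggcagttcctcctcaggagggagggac
*TRIM69*, chr15:44736460-44736489, plus strand, 61 bases before the start: tgagggtTTCTCTTTCtcttaagcaaatga
*TRIM14*, chr9:98119223-98119302, minus strand, 25 bases before the start: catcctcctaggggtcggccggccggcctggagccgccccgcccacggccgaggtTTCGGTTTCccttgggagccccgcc
*TRIM26*, chr6:30213550-30213629, minus strand, 193 bases before the start, with 2 overlapping matches: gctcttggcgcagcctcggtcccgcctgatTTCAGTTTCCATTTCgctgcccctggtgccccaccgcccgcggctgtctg
*TRIM21*, chr11:4393663-4393692, minus strand, within the first exon, with 2 overlapping matches: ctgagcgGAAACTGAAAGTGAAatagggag
The *TRIM5* and *TRIM34* cores are the same 9 letters. The matches of *TRIM5*, *TRIM21* and *TRIM69* lie in untranslated exon sequence of at least 1 annotated transcript. The starts used for *TRIM5*, *TRIM26*, *TRIM34* and *TRIM69* lie inside the bounds of their genes.

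Stimulation with IFNγ raised 10 members and lowered 2 in at least 1 siRNA group, while 34 members were called in none. A gene was called at an FDR under 0.01 over all genes tested and a fold change over 1.5, from limma on log2(CPM + 1). In siNC cells 9 members were higher and 1 was lower, which is 21.7% of the members beside 8.12% of all genes called (6.67% higher, 1.45% lower). In siPDL1-1 cells 10 were higher and 1 lower, beside 6.87% of all genes (5.58% and 1.3%). In siPDL1-2 cells 9 were higher and 2 lower, beside 5.27% (3.62% and 1.65%). The 9 members *TRIM5*, *TRIM14*, *TRIM21*, *TRIM22*, *TRIM25*, *TRIM34*, *TRIM38*, *TRIM56* and *TRIM69* were higher in all 3 groups, which is 19.6% of the members beside 2.43% of all genes. Being lower in all 3 groups was found for *TRIM45* alone among the members, beside 0.361% of all genes. In a bulk library, a change in fewer cells and a smaller change per cell cannot be told apart.

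**Figure D1:**
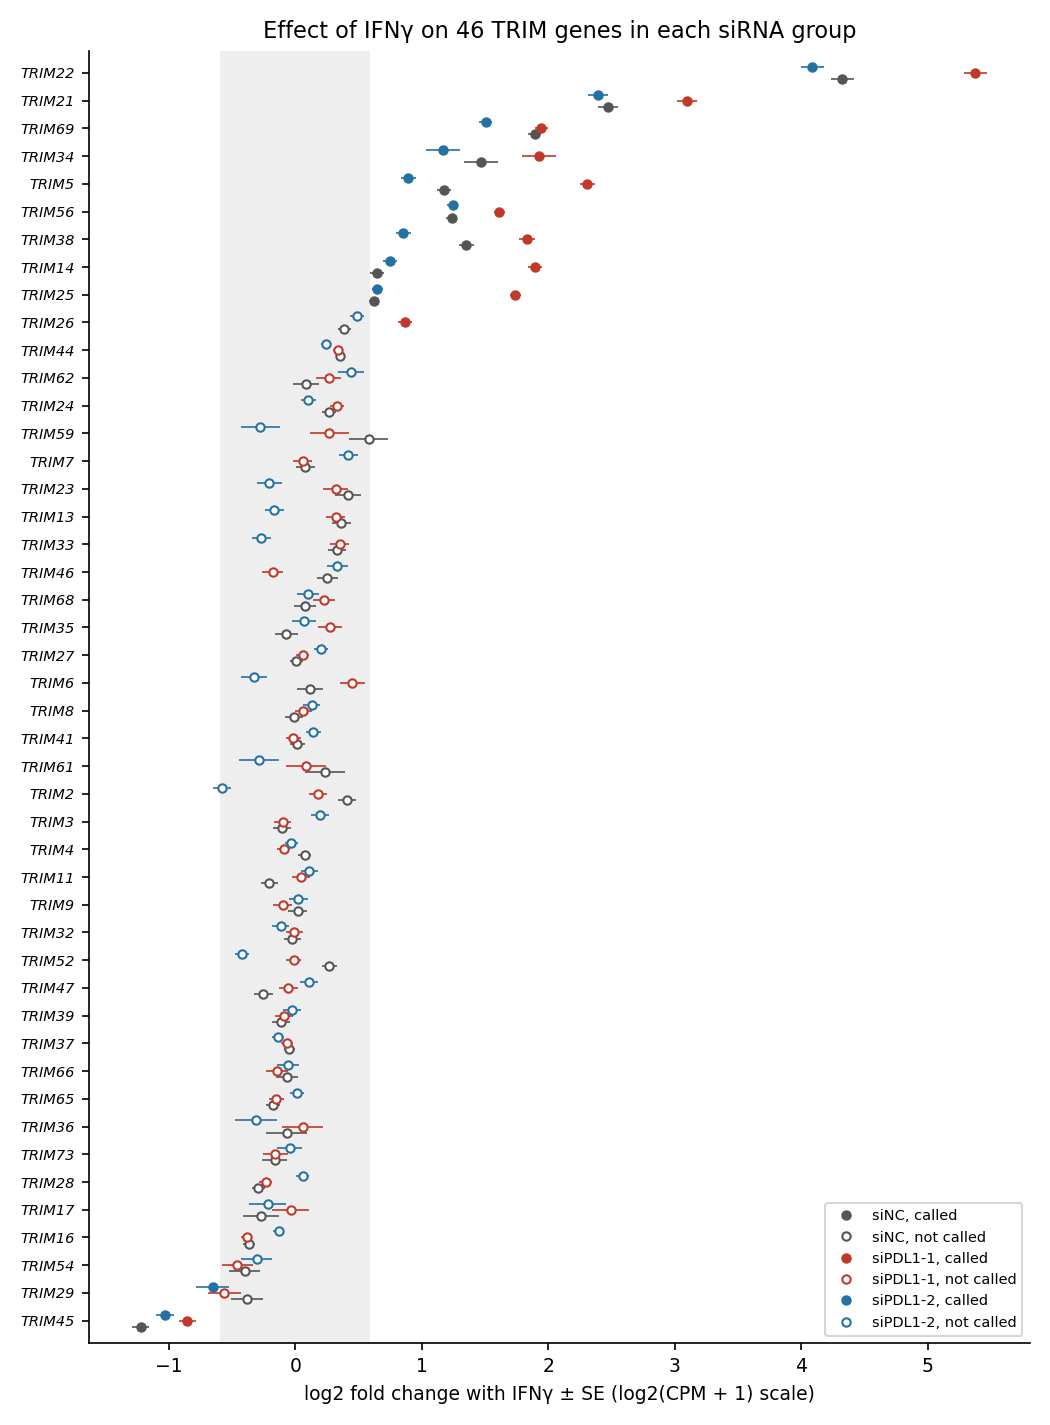
Log2 fold change with IFNγ on the log2(CPM + 1) scale (x axis) for each of the 46 members (y axis, ordered by the mean of the 3 values) in siNC, siPDL1-1 and siPDL1-2 cells; bars are the standard error from limma, filled points were called and the grey band is a fold change within 1.5. *TRIM22* stands farthest to the right at 4.32, 5.38 and 4.09, and *TRIM45* farthest to the left at -1.22, -0.85 and -1.03.

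Among the members that rose, *TRIM22* moved most. *TRIM22* is an interferon-induced antiviral factor that acts against retroviruses and hepatitis B virus, and it lies on chromosome 11 (5689697 to 5737089, plus strand). It was at 5.04 and 5.72 CPM in siNC, 7.34 and 7.96 in siPDL1-1, and 6.23 and 8.06 in siPDL1-2. Stimulation brought it to 123 and 130 CPM in siNC, 344 and 372 in siPDL1-1, and 139 and 134 in siPDL1-2. Every stimulated library lay above every unstimulated one, and the siPDL1-1 libraries were the highest. The log2 fold changes were 4.32 ± 0.09 (SE; limma FDR = 5.0e-14) in siNC, 5.38 ± 0.09 (2.5e-15) in siPDL1-1 and 4.09 ± 0.09 (1.0e-13) in siPDL1-2. Per kilobase of annotated exon it went from 0.54 to 16.5 CPM per kb on average over the 3 siRNAs.

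*TRIM21*, the cytosolic receptor for antibodies bound to incoming viruses, was the next in size. It was at 7.34 and 7.19 CPM in siNC, 6.85 and 8.10 in siPDL1-1, and 6.85 and 7.51 in siPDL1-2. With IFNγ it reached 44 and 45.7 CPM in siNC, 72.6 and 70.0 in siPDL1-1, and 40.2 and 43.5 in siPDL1-2. The stimulated libraries did not overlap the unstimulated ones. The log2 fold changes were 2.47 ± 0.08 (limma FDR = 1.7e-12), 3.10 ± 0.08 (6.1e-14) and 2.39 ± 0.08 (3.1e-12). With 1935 annotated exonic bases it had, per kilobase, the third highest stimulated level of the family, 27.2 CPM per kb, behind *TRIM28* at 37.9 and *TRIM56* at 34.1.

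*TRIM5*, *TRIM22*, *TRIM34* and *TRIM6* lie side by side on chromosome 11 (5596109 to 5938619), and *TRIM22* lies within the bounds of *TRIM5* on the opposite strand with no exon in common. *TRIM5*, which binds the capsids of incoming retroviruses, was at 18.6 and 18.6 CPM in siNC, 16.1 and 16.1 in siPDL1-1, and 18.6 and 19.8 in siPDL1-2. Stimulated cells of the same siRNAs had 44.1 and 42.4, 81.7 and 85.8, and 35.8 and 37.3 CPM. All stimulated libraries were above all unstimulated ones, and the siPDL1-1 pair stood apart from the other two pairs. The log2 fold changes were 1.18 ± 0.06 (limma FDR = 4.1e-10), 2.31 ± 0.06 (5.2e-14) and 0.89 ± 0.06 (1.6e-08). *TRIM34*, a relative of *TRIM5* that also binds capsids, rose by 1.47 ± 0.13 (5.5e-07), 1.92 ± 0.13 (2.3e-08) and 1.17 ± 0.13 (1.0e-05) on the log2 scale, from between 2.06 and 3.79 CPM to between 8.28 and 14.7 CPM. Of its annotated exonic bases, 83.6% also belong to the readthrough gene *TRIM6-TRIM34* (mean 1.64 CPM), so reads of the pair may be divided in the counting. *TRIM6*, their neighbour, was called in none of the 3 groups, with log2 fold changes of 0.11, 0.45 and -0.32.

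**Figure D2:**
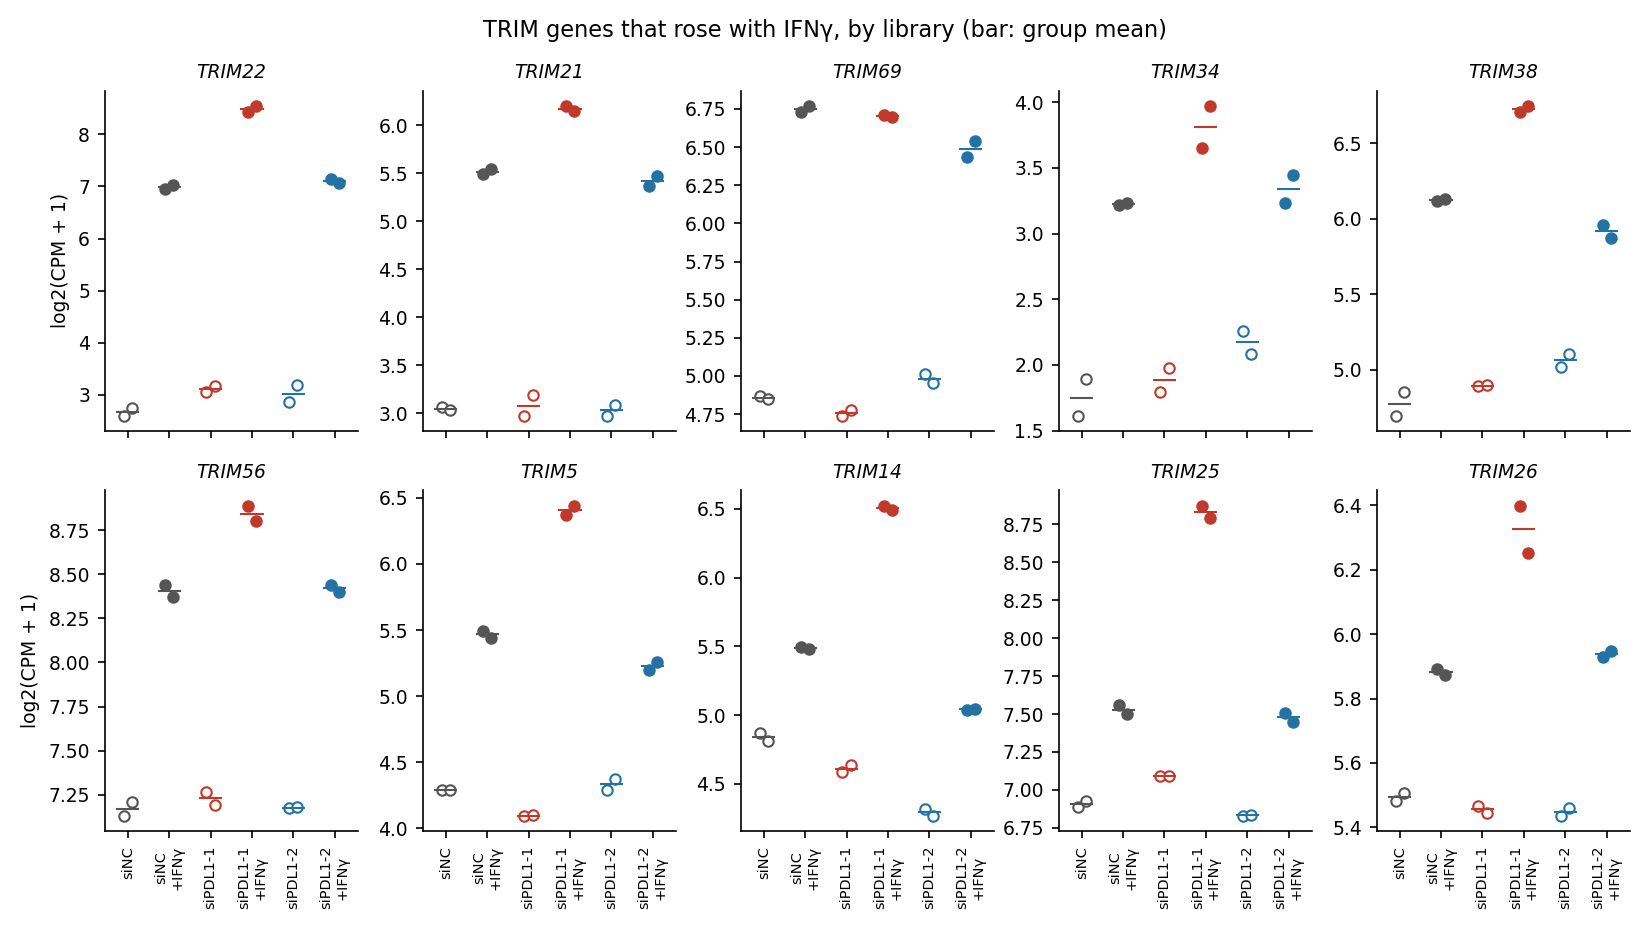
Level of each of the 10 members that rose with IFNγ, as log2(CPM + 1) (y axis, a separate range in each panel that does not start at 0), in the 12 libraries by group (x axis); each point is a library, open for unstimulated and filled for stimulated, and the line is the group mean. In every panel the 6 stimulated libraries sit above the 6 unstimulated ones. In every panel but that of *TRIM69* the stimulated siPDL1-1 libraries sit above the other stimulated ones.

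*TRIM25*, the ligase that ubiquitinates the RNA sensor RIG-I and partners the antiviral protein ZAP, was at 118 and 121 CPM in siNC, 135 and 135 in siPDL1-1, and 113 and 113 in siPDL1-2. After IFNγ it was at 188 and 180 CPM in siNC, 467 and 441 in siPDL1-1, and 181 and 174 in siPDL1-2. The siNC and siPDL1-2 pairs overlapped after stimulation and the siPDL1-1 pair lay far above both. The log2 fold changes were 0.62 ± 0.04 (limma FDR = 2.2e-08), 1.74 ± 0.04 (3.4e-14) and 0.65 ± 0.04 (1.7e-08). *TRIM14*, which lacks a RING finger and works as an adaptor at mitochondria, rose by 0.65 ± 0.05 (2.5e-07), 1.90 ± 0.05 (2.6e-13) and 0.75 ± 0.05 (5.5e-08) on the log2 scale. Its values were 28.3 and 27.0 CPM in siNC, 23.1 and 23.8 in siPDL1-1, and 18.9 and 18.3 in siPDL1-2, and 44.1 and 43.6, 90.8 and 89.1, and 31.9 and 32.0 after IFNγ. *TRIM14* was thus lowest in siPDL1-2 cells both before and after stimulation.

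*TRIM56*, a ligase with a part in cytosolic DNA and RNA sensing and antiviral defence, went from between 139 and 153 CPM to 346 and 331 in siNC, 473 and 445 in siPDL1-1, and 346 and 337 in siPDL1-2, with log2 fold changes of 1.23 ± 0.05 (limma FDR = 9.1e-12), 1.61 ± 0.05 (1.9e-13) and 1.24 ± 0.05 (9.5e-12). *TRIM38*, which limits signalling from innate receptors and cytokines, was at 24.9 and 27.8, 28.6 and 28.8, and 31.4 and 33.4 CPM without IFNγ. After it, *TRIM38* was at 68.3 and 69.1 CPM in siNC, 103 and 106 in siPDL1-1, and 61.2 and 57.5 in siPDL1-2, with log2 fold changes of 1.35 ± 0.06 (1.0e-10), 1.83 ± 0.06 (1.6e-12) and 0.85 ± 0.06 (4.0e-08). *TRIM69*, an interferon-induced ligase active against vesicular stomatitis virus, rose by 1.89 ± 0.05 (2.0e-13), 1.94 ± 0.05 (9.9e-14) and 1.5 ± 0.05 (4.5e-12). Its stimulated values were 105 and 108, 104 and 103, and 85.5 and 91.9 CPM, so the siPDL1-2 pair was the lowest. *TRIM26*, encoded in the MHC region of chromosome 6, was called in siPDL1-1 cells alone, where it rose by 0.87 ± 0.05 (5.6e-09). Its log2 fold changes in siNC and siPDL1-2 were 0.39 ± 0.05 (4.1e-05) and 0.49 ± 0.05 (6.4e-06), with stimulated libraries all above unstimulated ones but a fold change under 1.5.

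*TRIM45*, the member of the family with a filamin domain and a negative regulator of MAP kinase signalling, fell. It was at 53.5 and 54.4 CPM in siNC, 37.0 and 39.0 in siPDL1-1, and 55.1 and 51.8 in siPDL1-2. After IFNγ it was at 22.8 and 22.3, 22 and 19.3, and 24.7 and 26.6 CPM. All 6 stimulated libraries lay below all 6 unstimulated ones, which was true of 1 of the 46 members and of 3.44% of all genes. The log2 fold changes were -1.22 ± 0.07 (limma FDR = 1.7e-09), -0.85 ± 0.07 (1.2e-07) and -1.03 ± 0.07 (1.7e-08). *TRIM29*, a RING-less member known from epithelia, was called lower in siPDL1-2 cells only, at -0.65 ± 0.13 (0.00145). Its values in siNC and siPDL1-1 were -0.38 ± 0.13 (0.0281) and -0.56 ± 0.13 (0.00322). The call in siPDL1-2 was lost when any 1 of the 4 siPDL1-2 libraries was left out, with log2 fold changes then between -0.70 and -0.61. The fall in siPDL1-1 was called by edgeR's quasi-likelihood test (-0.70), by DESeq2 (-0.70) and with a pseudocount of 0.1 (-0.69).

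The 34 members that were not called lay between -0.40 (*TRIM54*) and 0.58 (*TRIM59*) in siNC, between -0.46 (*TRIM54*) and 0.45 (*TRIM6*) in siPDL1-1, and between -0.58 (*TRIM2*) and 0.44 (*TRIM62*) in siPDL1-2. In other settings 3 of them gained a call: *TRIM2* in siPDL1-2 without unstimulated replicate 1 (-0.62) or stimulated replicate 1 (-0.65), *TRIM59* in siNC without unstimulated replicate 2 (0.75) or stimulated replicate 1 (0.76), and *TRIM54* in siNC with edgeR's quasi-likelihood test (-0.98). For 26 of them the 95% interval of the log2 fold change stayed within a fold change of 1.5 in all 3 groups. For the other 8 (*TRIM2*, *TRIM6*, *TRIM23*, *TRIM36*, *TRIM54*, *TRIM59*, *TRIM61* and *TRIM62*) it did not, so a change past 1.5-fold was not excluded by the interval. The intervals are on the log2(CPM + 1) scale, which understates changes of low genes, so for these they do not bound the change in CPM. *TRIM17*, among the 26, had means of 0.82 CPM in siNC, 0.55 in siPDL1-1 and 0.80 in siPDL1-2. After IFNγ its means were 0.51, 0.52 and 0.56 CPM. Across all genes, 88.3% were called in none of the 3 groups, beside 73.9% of the members.

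The 5 members with the highest mean CPM among those not called were *TRIM2*, *TRIM44*, *TRIM28*, *TRIM16* and *TRIM27*. *TRIM28*, the KAP1 co-repressor that brings histone methyltransferases to zinc-finger proteins, had the highest level of the family per kilobase, 42.3 CPM per kb without and 37.9 with IFNγ. It was at 209 and 211 CPM in siNC, 172 and 174 in siPDL1-1, and 162 and 166 in siPDL1-2, and at 177 and 165, 151 and 143, and 162 and 181 CPM after IFNγ, with log2 fold changes of -0.29, -0.23 and 0.06. *TRIM44*, which has a ubiquitin protease-like zinc finger in place of a RING, had log2 fold changes of 0.36, 0.34 and 0.24, with all stimulated libraries between 208 and 252 CPM and all unstimulated ones between 164 and 200.2 CPM. It and *TRIM24*, the TIF1α co-regulator of nuclear receptors, were the members outside the 10 that rose whose stimulated libraries all lay above the unstimulated ones, which made 12 of 46 members beside 6.4% of all genes. *TRIM27* had log2 fold changes of 0.01, 0.06 and 0.20, and *TRIM16* of -0.36, -0.38 and -0.13. The stimulated *TRIM16* libraries, at 101 to 127 CPM, overlapped the unstimulated ones, at 114 to 165 CPM, and its near-identical copy *TRIM16L* leaves the split of its reads uncertain.

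Each member was put in 1 domain class from general knowledge, and the counts by class stand beside 88.3% of all genes called in none of the 3 IFNγ comparisons. Of 21 members with both a RING and a PRY-SPRY domain, 8 rose and 13 were not called. The PRY-SPRY domain is the part with which *TRIM5* and *TRIM21* bind their targets. Of 4 members classed by the lack of a RING, *TRIM14* rose, *TRIM29* fell and *TRIM16* and *TRIM44* were not called, and *TRIM14* and *TRIM16* carry a PRY-SPRY domain as well. Of the 5 members with no recognised C-terminal domain, *TRIM56* rose. None of the 4 members with a PHD finger and a bromodomain (*TRIM24*, *TRIM28*, *TRIM33* and *TRIM66*), of the 3 with NHL repeats (*TRIM2*, *TRIM3* and *TRIM32*) or of the 3 with a COS box, fibronectin repeat and SPRY (*TRIM9*, *TRIM36* and *TRIM46*) was called. The same held for *TRIM23*, *TRIM37*, *TRIM54* and the membrane-anchored *TRIM13* and *TRIM59*.

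In the list of 12 TRIM genes commonly cited as interferon-stimulated, 11 were tested, and 9, 10 and 9 were called higher in siNC, siPDL1-1 and siPDL1-2, beside 6.67%, 5.58% and 3.62% of all genes, with median log2 fold changes of 1.23, 1.90 and 0.89. The list and these samples were both known when it was written. *TRIM6* was not called in any group, and the remaining gene, *TRIM31*, lay between 0 and 0.284 CPM and was not tested. Among TRIM proteins named otherwise, *PML*, the organiser of nuclear bodies, rose by 1.52, 2.24 and 1.79 on the log2 scale, while *MID1*, *MID2* and *MEFV* were not called. *MEFV* was a low gene, for which this scale understates changes. Its means went from 0.074 to 0.443 CPM in siNC, 0.303 to 0.877 in siPDL1-1 and 0.128 to 0.358 in siPDL1-2. Of the nucleic acid sensing partners, 7 were tested and 4, 4 and 3 were higher, beside the same shares of all genes, including *DDX58* (RIG-I) at 1.95, 4.43 and 1.58 and *ZC3HAV1* (ZAP) at 1.05, 2.10 and 0.82, while *MAVS* and *STING1* were not called. Of 7 partners of *TRIM28* and *PML*, *SP100* was called, at 1.85, 2.47 and 1.7, and *SETDB1*, *DAXX*, *ATRX* and the 3 *CBX* genes were not. The regulators *STAT2*, *IRF1* and *IRF9* were called higher in each group.

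In unstimulated cells the 2 *PD-L1* siRNAs left the interferon-responsive members within a log2 difference of -0.55 to 0.44 of siNC, and none of the 10 was called. *TRIM14* came nearest, at -0.55 in siPDL1-2, and was called there by edgeR's quasi-likelihood test (-0.59) and DESeq2 (-0.60). Against siNC, siPDL1-1 gave 1 called member of 46, which was higher, beside 4% of all genes (2.55% higher, 1.45% lower). With siPDL1-2 it was 2, both higher, beside 6.17% (4.84% higher, 1.33% lower). *TRIM29* was at 2.99 and 3.09 CPM in siNC, 5.22 and 5.25 in siPDL1-1, and 8.87 and 9.46 in siPDL1-2. The 3 pairs did not overlap, and the log2 differences were 0.63 ± 0.13 (limma FDR = 0.00172) for siPDL1-1 and 1.33 ± 0.13 (1.7e-06) for siPDL1-2 against siNC. The first of these was lost when any 1 of its 4 libraries was left out (0.61 to 0.65). *TRIM2*, a ligase of neurons that targets neurofilament light chain, was at 205 and 198 CPM in siNC, 197 and 187 in siPDL1-1, and 322 and 339 in siPDL1-2, with a log2 difference of 0.71 ± 0.07 (1.3e-05) for siPDL1-2 against siNC. Between the 2 siRNAs, *TRIM2* and *TRIM29* were called, beside 4.35% of all genes (0.884% higher, 3.47% lower), at -0.78 ± 0.07 (1.1e-05) and -0.70 ± 0.13 (6.1e-04) for siPDL1-1 against siPDL1-2. Of the exonic bases of *TRIM2*, 19.98% are shared with the gene AC013477.1 on the same strand (19.3 CPM).

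After IFNγ the siRNAs differed in these members. Against siNC, 8 of 46 members were higher in siPDL1-1 and 0 lower, which is 17.4% beside 5.47% of all genes called (3.73% higher, 1.75% lower). The log2 differences were 1.49 ± 0.09 for *TRIM22* (limma FDR = 2.8e-08), 1.30 ± 0.04 for *TRIM25* (9.6e-12), 1.02 ± 0.05 for *TRIM14* (2.4e-09), 0.94 ± 0.06 for *TRIM5* (1.5e-08), 0.66 ± 0.08 for *TRIM21* (1.4e-05), 0.60 ± 0.06 for *TRIM38* (2.1e-06) and 0.59 ± 0.13 for *TRIM34* (0.00301). The eighth was *TRIM62*, at 0.62 ± 0.10 (2.2e-04), which is named after its values were seen: it was at 8.97 and 7.26 CPM in siNC and 13.3 and 12.6 in siPDL1-1 after IFNγ. *TRIM56* at 0.44 ± 0.05 and *TRIM26* at 0.44 ± 0.05 stayed under a fold change of 1.5, and *TRIM69* was at -0.05 ± 0.05, with a 95% interval from -0.16 to 0.06. The calls of *TRIM34*, *TRIM38* and *TRIM62* were the ones lost in leaving out single libraries. *TRIM34* was lost without either stimulated siNC library (0.58 and 0.60) or without siPDL1-1 replicate 2 after IFNγ (0.43), *TRIM38* without that same siPDL1-1 library (0.58), and *TRIM62* without siNC replicate 2 (0.48) or siPDL1-1 replicate 1 (0.58) after IFNγ.

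**Figure D3:**
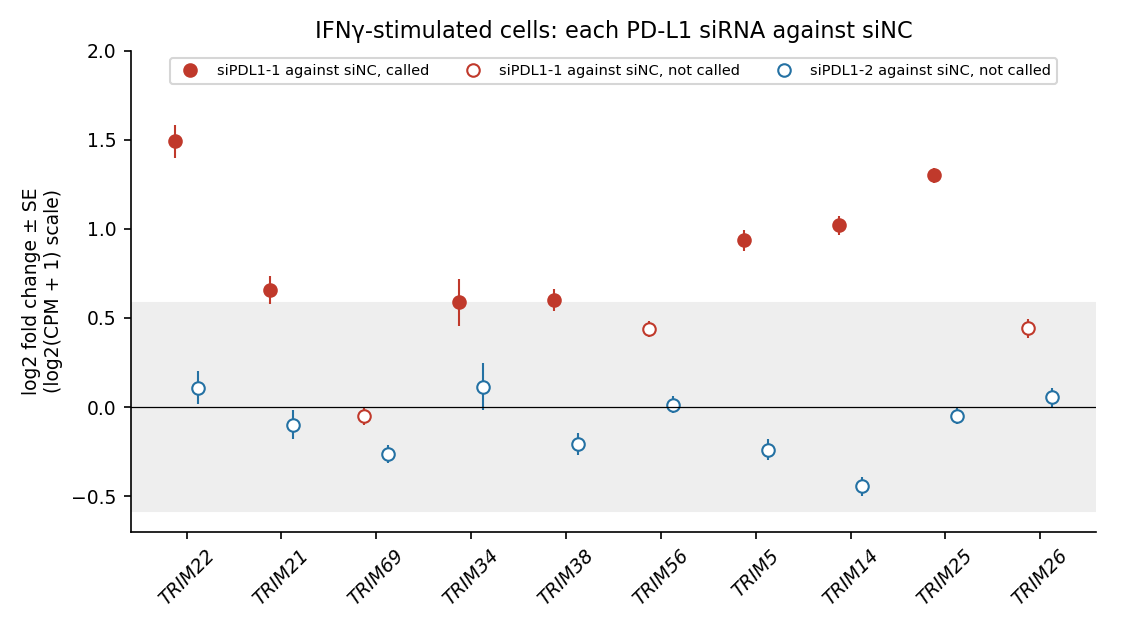
Log2 difference ± SE (y axis, log2(CPM + 1) scale) of stimulated siPDL1-1 and siPDL1-2 libraries from stimulated siNC libraries for the 10 members that rose with IFNγ (x axis); filled points were called and the grey band is a fold change within 1.5. For siPDL1-1, 7 of the 10 are filled and range from 0.59 to 1.49, and for siPDL1-2 none is filled and the values range from -0.44 to 0.12.

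With siPDL1-2, which shares the siNC libraries, 1 member was called, higher after IFNγ, beside 3.13% of all genes (1.92% higher, 1.2% lower). This was *TRIM29*, at 2.04 and 2.16 CPM in siNC and 5.39 and 5.52 in siPDL1-2 (log2 difference 1.06 ± 0.13, limma FDR = 2.8e-05). The 10 members that rose with IFNγ lay between -0.44 (*TRIM14*) and 0.12 (*TRIM34*) of siNC. Set against each other after IFNγ, the 2 siRNAs differed in 8 of 46 members, 7 of them higher with siPDL1-1, beside 2.23% of all genes (1.79% higher, 0.439% lower). These were *TRIM14* at 1.47 ± 0.05 (4.4e-11), *TRIM22* at 1.38 ± 0.09 (1.2e-07), *TRIM25* at 1.35 ± 0.04 (5.9e-12), *TRIM5* at 1.17 ± 0.06 (1.6e-09), *TRIM38* at 0.81 ± 0.06 (2.1e-07), *TRIM21* at 0.76 ± 0.08 (8.1e-06) and *TRIM6* at 0.75 ± 0.10 (1.0e-04). *TRIM6* was at 11.4 and 13.0 CPM in stimulated siPDL1-1 cells and at 6.33 and 7.40 in stimulated siPDL1-2 cells, on either side of siNC at 9.33 and 9.94. Of its annotated exonic bases, 29.2% also belong to *TRIM6-TRIM34*, so its reads may be divided in the counting. The readthrough gene had 94 and 12 reads in stimulated siPDL1-1 and 47 and 0 in stimulated siPDL1-2 libraries. *TRIM29* was lower with siPDL1-1, at -0.61 ± 0.13 (0.00347), a call that held in 13 of 19 other settings. It was lost without siPDL1-1 replicate 1 (-0.38) or without either siPDL1-2 library (-0.62 and -0.60) after IFNγ.

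The difference between siRNAs in the effect of IFNγ was tested directly as an interaction. Relative to siNC, the effect of IFNγ was larger in siPDL1-1 for 5 of 46 members, 10.9% beside 0.968% of all genes (0.89% higher, 0.0779% lower). These were *TRIM14* by 1.25 ± 0.08 (limma FDR = 5.2e-08), *TRIM5* by 1.13 ± 0.08 (4.0e-07), *TRIM25* by 1.12 ± 0.06 (1.5e-08), *TRIM22* by 1.05 ± 0.13 (1.8e-04) and *TRIM21* by 0.63 ± 0.11 (0.00461). The call of *TRIM21* held in 11 of 18 other settings, and without 1 library its value lay between 0.52 and 0.73. *TRIM69* had an interaction of 0.05 with a 95% interval from -0.11 to 0.21, and *TRIM38*, *TRIM26*, *TRIM34* and *TRIM56* had 0.48, 0.48, 0.45 and 0.38, under the fold change threshold. In siNC cells the effects of IFNγ were 1.89 for *TRIM69* and 0.65 for *TRIM14*, and in siPDL1-1 cells they were 1.94 and 1.90.

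Several measures moved with the siPDL1-1 result. The summed level of 20 type I interferon-response genes was 116 and 119 CPM in siNC, 182 and 180 in siPDL1-1, and 108 and 106 in siPDL1-2. After IFNγ it was 774 and 744 CPM in siNC, 6226 and 6114 in siPDL1-1, and 844 and 860 in siPDL1-2. In unstimulated cells 12 of the 20 genes were called higher in siPDL1-1 than in siNC, beside 2.55% of all genes. The interaction was called, with a larger effect of IFNγ in siPDL1-1 than in siNC, for 19 of the 20 genes. This stands beside 0.968% of all genes (0.89% higher). For *MX1* it was 0.32 and not called, and the median log2 interaction of the 20 genes was 2.38. *IFNB1*, the gene of IFNβ, had 18 and 26 reads in the stimulated siPDL1-1 libraries and 2 or fewer in each of the other 10. Its interaction of 0.82 was not called, while its log2 fold change with IFNγ in siPDL1-1 cells, 0.87, was. *STAT2* had an interaction of 1.26, *PML* of 0.72, *DDX58* of 2.48, *IFIH1* of 1.94, *ZC3HAV1* of 1.05 and *SP100* of 0.62, all called, while *IRF1* (-0.41) and *IRF9* (-0.10) were not. The levels of both still differed between the siRNAs. *IRF9* was at 20.4 and 18.4 CPM in siNC and 34.0 and 32.1 in siPDL1-1, and after IFNγ at 76.7 and 70.6 against 118 and 113. After IFNγ *IRF1* was at 549 and 531 CPM in siNC and 361 and 337 in siPDL1-1. The part of these measures in the levels of the TRIM members was not tested. After IFNγ the log2 difference of *CD274* from siNC was -0.20 in siPDL1-1, not called, and -1.0 in siPDL1-2, called. Without IFNγ it was -0.64 in siPDL1-1, called, and -0.35 in siPDL1-2, not called. The part of the loss of *CD274* in the TRIM levels was not tested. The siRNA sequence and the loss of its target cannot be told apart for a single siRNA.

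Relative to siNC, the effect of IFNγ was lower in siPDL1-2 for 5 of 46 members, 10.9% beside 7.62% of all genes (1.84% higher, 5.78% lower), and none of them was among the 10 that rose. This share is near that of all genes, so the count does not set the family apart. With edgeR's quasi-likelihood test 3 members were called, and with DESeq2's Wald test 2. *TRIM2* had the largest interaction, -0.99 ± 0.10 (limma FDR = 6.6e-05). It went from 205 and 198 CPM to 263 and 274 in siNC, and from 322 and 339 to 232 and 211 in siPDL1-2. *TRIM52*, a member with an enlarged RING finger, went from 31.8 and 34.0 to 39.5 and 40.2 CPM in siNC and from 42.4 and 42.4 to 31.8 and 31.0 in siPDL1-2, an interaction of -0.69 ± 0.08 (5.6e-05). In both genes the siNC pair went up and the siPDL1-2 pair went down, without overlap. Of the exonic bases of *TRIM52*, 27.6% are shared with CTC-338M12.4 (24.1 CPM).

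The other 3 members in this set rested on fewer settings. *TRIM33*, the TIF1γ regulator of SMAD signalling, had an interaction of -0.60 ± 0.10 (limma FDR = 7.6e-04), *TRIM23*, which carries an ARF GTPase domain, of -0.62 ± 0.14 (0.00431), and *TRIM59* of -0.86 ± 0.22 (0.00807). *TRIM59* was at 0.54 and 0.94 CPM in siNC and 1.27 and 1.93 after IFNγ, and at 0.98 and 1.22 in siPDL1-2 and 0.59 and 0.89 after IFNγ, and 19.9% of its exonic bases overlap *SMC4* (137 CPM) on the opposite strand, which the counting did not separate. The calls held in 11 of 18 other settings for *TRIM33*, 9 of 18 for *TRIM23* and 6 of 17 for *TRIM59*. The direction was kept in each of them.

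**Figure D4:**
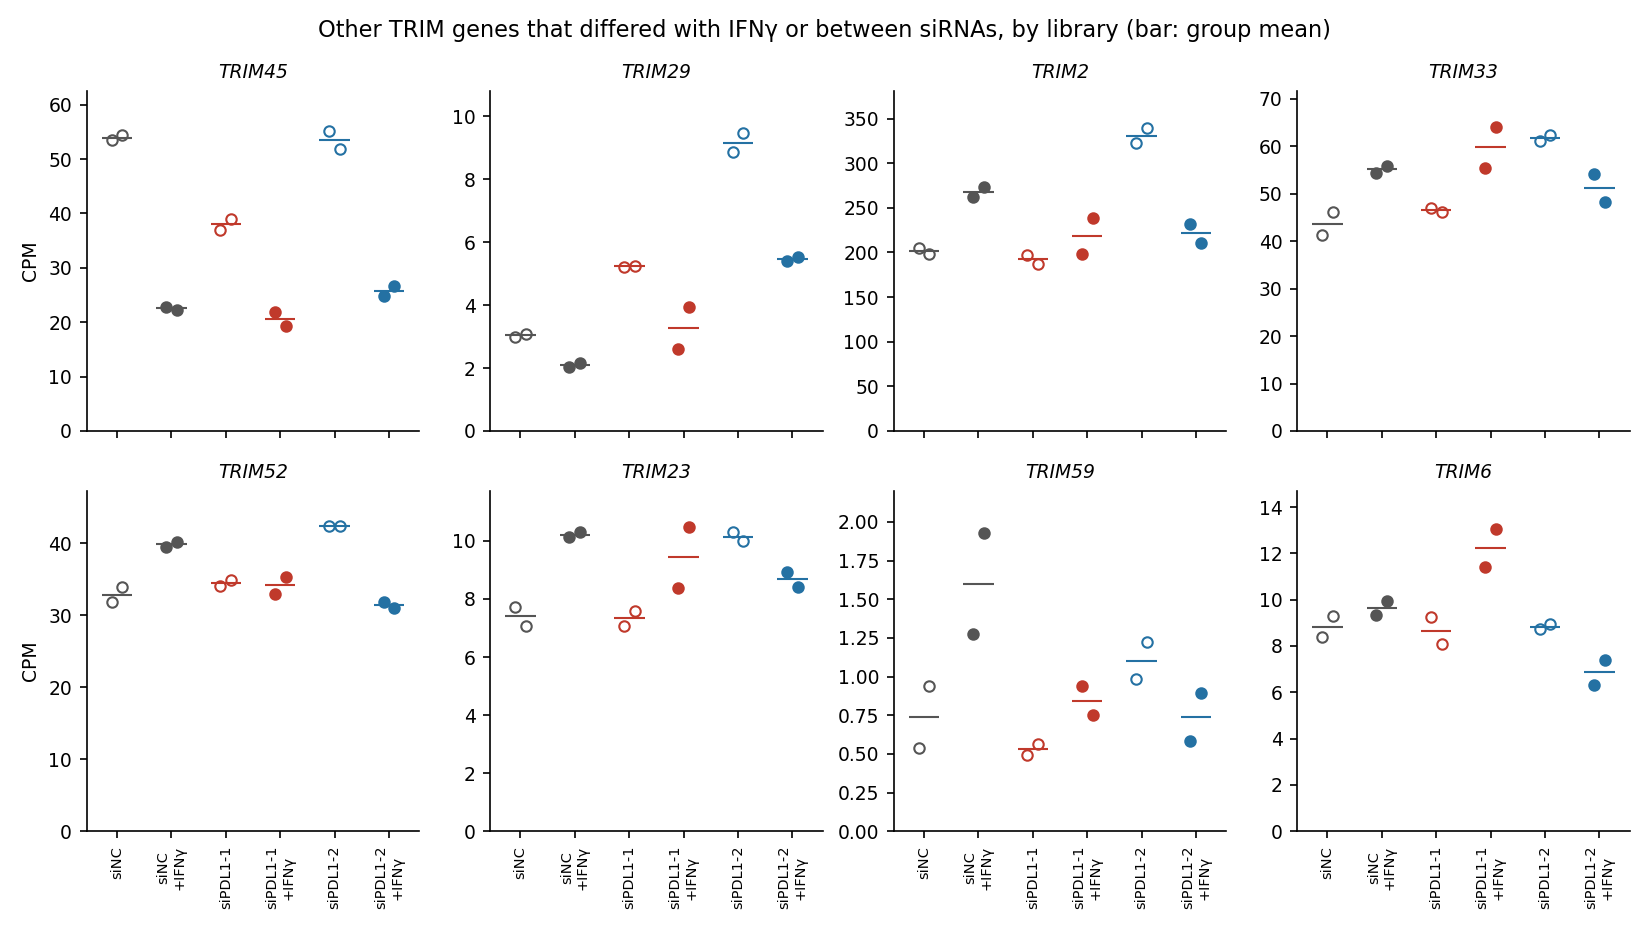
Level in CPM (y axis, from 0, with its own range in each panel) of 8 other members that differed with IFNγ or between siRNAs, in the 12 libraries by group (x axis); each point is a library, open for unstimulated and filled for stimulated, and the line is the group mean. *TRIM45* is lower in every stimulated group, *TRIM29* is higher with siPDL1-2 than with siNC with and without IFNγ, and *TRIM2* goes up with IFNγ in siNC (205 and 198 to 263 and 274 CPM) and down in siPDL1-2 (322 and 339 to 232 and 211 CPM).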

How the data were processed

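U251 cells with siNC, siPDL1-1 or siPDL1-2, without or with IFNγ, gave 12 RNA-seq libraries, grouped by the sample labels. Per the methods, trimming, mapping to GRCh38 (Ensembl genes), counting without regard to strand and normalization were all done by the authors in CLC Genomics Workbench. The deposited values are these normalized CPM signal values, 1 column per library. In every library 100% of them were whole multiples of 1 read within a tolerance of 0.01, and reads were recovered for the filter and the count tests. The extraction kit and instrument differ between the labels and the methods.

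Genes were kept with filterByExpr (minimum count 10, minimum total count 15), and limma with trend and robust empirical Bayes was fitted to log2(CPM + 1) over 12 libraries as 6 groups. Genes were called at a Benjamini-Hochberg FDR under 0.01 and a fold change over 1.5 in 11 comparisons. Fold changes on this scale understate those of low genes.

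Alternatives were a pseudocount of 0.1, no filter, edgeR's quasi-likelihood test, DESeq2's Wald test and size factors, a replicate block, the 6 stimulated libraries alone, and leaving out each library. The main limma fit, and none of the alternatives, was run on simulated reads with changes planted in the stimulated siNC libraries. Exon lengths and overlaps came from GENCODE 44, promoters from RefSeq. The members and gene lists were chosen with earlier results of these data known. The genes named are the members called with IFNγ, up to 5 called members per comparison of siRNAs, the 5 highest members not called, those cited as interferon-stimulated, and those next to the 0.5 CPM limit. Lists, from general knowledge, were TRIM proteins under other names, sensing partners, partners of *TRIM28* and *PML*, regulators (the result for 1 of them is not reported here), type I interferon-response genes and cell type markers. Versions were limma 3.58.1, DESeq2 1.42.0 and edgeR 4.0.16 under R 4.3.3, and matplotlib 3.10.9 and pandas 2.3.3 under Python 3.11.15.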

Additional observations from a re-analysis of the deposited data

Results flagged for a closer look

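The effect of IFNγ differed from that in siNC for 10 members, each by the interaction test in limma given in the report. With siPDL1-1 this was 5 of 46 members, beside 0.968% of all genes. With siPDL1-2 it was 5 of 46, or 10.9%, near the 7.62% of all genes. With siPDL1-1 the log2 interaction was 1.25 for *TRIM14*, 1.13 for *TRIM5*, 1.12 for *TRIM25*, 1.05 for *TRIM22* and 0.63 for *TRIM21*. With siPDL1-2 the log2 interaction was -0.99 for *TRIM2*, -0.86 for *TRIM59*, -0.69 for *TRIM52*, -0.62 for *TRIM23* and -0.60 for *TRIM33*. The calls held in 6 of 17 other settings for *TRIM59*, 9 of 18 for *TRIM23*, and 11 of 18 for *TRIM33* and *TRIM21*. The calls of the remaining genes held in every other setting. No gene was in both sets. The groups held 2 libraries each, too few to test a single library as an outlier.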

How the results depend on the processing

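Of 64 called values of the named members, 53 kept their call in each alternative that gave a value, and no value reversed, while 65 uncalled values near 0 took the other sign. The number of members called in the dependence of the IFNγ effect on siPDL1-2 was 5, and 3 with no filter, with edgeR's quasi-likelihood test and with DESeq2's size factors, and 2 with DESeq2's Wald test, which gave no adjusted p for *TRIM59*. With a pseudocount of 0.1, siPDL1-1 against siNC in unstimulated cells gave 2 members in place of 1. DESeq2's size factors moved the median of all genes by at most 0.034 on the log2 scale.

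Leaving out 1 library at a time, the number called with IFNγ was 10 to 11 in siNC, 11 to 12 in siPDL1-1 and 10 to 11 in siPDL1-2. In unstimulated cells it was 0 to 1 for siPDL1-1 against siNC (0 without siNC replicate 1 or either siPDL1-1 library), 2 in each case for siPDL1-2 against siNC, and 1 to 2 between the siRNAs (1 without siPDL1-2 replicate 2). After IFNγ it was 6 to 8, 1 to 2 (2 without the stimulated siNC replicate 1) and 7 to 8. For the dependence it was 4 to 5 with siPDL1-1 and 2 to 5 with siPDL1-2, with 2 without siNC replicate 2 after IFNγ, siPDL1-2 replicate 2 or siPDL1-2 replicate 2 after IFNγ, and 3 without siPDL1-2 replicate 1. The cause of these changes was not tested.

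With the replicate number as a block the counts were the same, 10, 11 and 11 with IFNγ, 1, 2 and 2 in unstimulated cells, 8, 1 and 8 after IFNγ, and 5 and 5 for the dependence. Over 14278 genes the replicate deviations of the groups correlated between -0.187 and 0.252, so the numbers were not taken as pairs.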
